A study of Mus musculus with 12 samples.

Results

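The data described here are the comparison of Dnmt1 knockout palatal shelves with untreated control shelves, across all genes. It rests on 6 of the study's 12 RNA sequencing libraries, chosen by their labels: 3 of the genotype DNMT1 KO, labelled conditional knockout and untreated, and 3 labelled wild type (WT) and untreated. Palatal shelves are outgrowths on either side of the upper jaw, which later fuse into the roof of the mouth, and all shelves were dissected from mouse embryos at gestational day 12. Each library pooled the shelves of 2 embryos with one genotype according to the protocol in the labels, whereas the series' design text speaks of 3 pooled animals. The other 6 libraries came from wild type embryos given 5-aza-2'-deoxycytidine (AzadC, a cytosine analogue) or its vehicle. The 3 vehicle libraries are given beside many results as a second set of wild type shelves. Not given in the sources used here are the Cre driver, the cells that recombine and the deleted exons.

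Dnmt1 encodes the maintenance DNA methyltransferase. After each round of replication it copies the methyl marks of the old DNA strand onto the new one, so that cells without it lose methylation as they divide. In somatic cells, methylated promoters keep many genes of the germ line silent, and methylation also marks one parental copy of imprinted genes. In the face, the mesenchyme of the palatal shelves derives largely from the cranial neural crest, grows, and gives rise to cartilage, bone and connective tissue.

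The 6 libraries held 16997239 to 33113790 expected counts, and 15670 to 17223 genes reached 10 counts. Expression levels below are CPM, the counts of a gene relative to its library's total after scaling for composition, in the order of replicates 1, 2 and 3. All 8 palatal mesenchyme genes checked (Osr2, Pax9, Msx1, Prrx1, Twist1, Shox2, Barx1 and Meox2) were detected in every library, at 0.910 to 270.1 TPM. Msx1 and Shox2, which mark the front of the palate, varied among the control libraries themselves, from 0.910 TPM in control 2 to 30.2 TPM in control 3 for Msx1 and from 8.13 to 85.5 TPM in the same libraries for Shox2. On the first principal component of the 500 most variable genes, which held 77.4% of the variance, the knockout libraries lay between -47.1 and -35.1 and the control libraries between 37.8 and 48.5. In these bulk samples, fewer cells of a type and less RNA per cell cannot be told apart. The labels speak of embryos from at least 3 litters per genotype without saying which library holds which, so the p-values measure the spread between these pools.

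Dnmt1 was read first in every library. Its level was 201, 179.6 and 191 CPM in the knockout and 286, 278 and 258 CPM in the control libraries. The groups did not overlap, and the change was -0.52 on the log2 scale (SE 0.07, edgeR adjusted p = 3.69e-04). The call held under each alternative run, and against the vehicle libraries the change was -1.24. The vehicle libraries stood at 452, 451 and 448 CPM, above the control. Part of that larger change is thus a difference between the 2 wild type groups, whose cause was not tested. Reads of Dnmt1 thus remained in knockout shelves, and which exons they cover cannot be read from gene totals. Among its partners, Uhrf1, which recruits Dnmt1 to newly copied DNA, rose by 0.35 (SE 0.08, adjusted p = 0.0134), from 249.9, 214 and 216 CPM to 307, 285 and 272 CPM. Its call was lost without knockout 1 or control 2 and against the vehicle. Tet2, which oxidises methylated cytosine, fell by 0.33 (SE 0.07, adjusted p = 0.00971), a call lost without knockout 2. The de novo methyltransferase genes Dnmt3a and Dnmt3b had changes of -0.05 and 0.36 and neither passed the test (adjusted p 0.640 and 0.0550), although Dnmt3b passed with DESeq2.

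Of 17335 genes tested, 1358 were higher in the knockout (7.83%) and 1115 were lower (6.43%) at an edgeR adjusted p below 0.05. The 2 directions differed in shape. Among the genes that rose, 501 (36.9%) changed by at most 0.5 log2 units and 294 (21.6%) by more than 3. Among those that fell, 460 (41.3%) changed by at most 0.5 and only 23 (2.06%) by more than 3. The median change was 1.08 for the genes that rose and -0.58 for those that fell, beside 0.00 over all tested genes. The 3 knockout libraries lay apart from the 3 control libraries for 1346 of the 1358 genes that rose and for 1088 of the 1115 that fell, while over all tested genes 2922 (16.9%) lay wholly higher and 2611 (15.1%) wholly lower. Without knockout 2 the counts were 808 higher and 552 lower, and without control 2 they were 875 and 624. With the vehicle libraries in place of the control, 1162 genes (6.70%) were higher and 716 (4.13%) lower.

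The share of genes that rose depended on their level in control shelves. Of the 2603 tested genes at 0.1 to 1 CPM in the control, 241 rose (9.26%), and of the 7741 genes at 10 to 100 CPM, 386 rose (4.99%), whereas above 100 CPM 262 of 2521 rose (10.4%). The lower calls sat among expressed genes, with 681 (8.80%) at 10 to 100 CPM and 233 (9.24%) above 100 CPM. Below these levels stood 103 tested genes with 0 counts in all 3 control libraries and 108 at 0 to 0.1 CPM, of which 97 and 87 rose. Such genes passed the filter on low counts only through reads in other groups, mainly the knockout, so that their high shares were fixed by the filter and are given as a description.

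**Figure D1:**
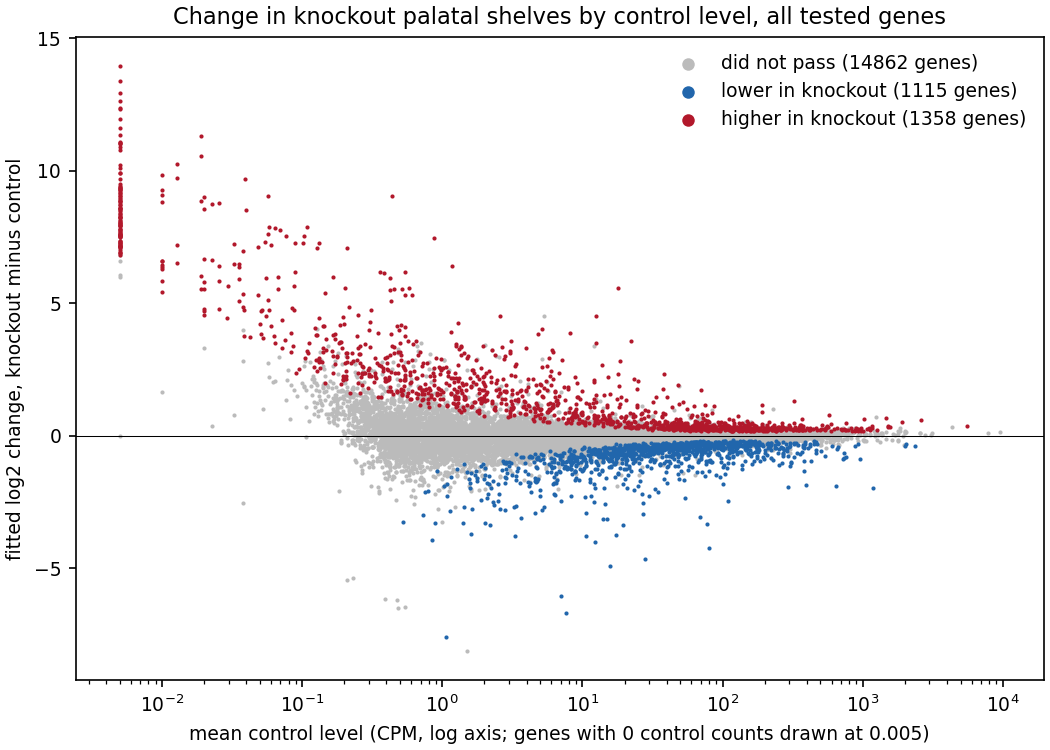
Each point is 1 of 17335 tested genes, with its mean control level on a log CPM axis and its fitted log2 change in the knockout; red points were higher, blue points lower and grey points did not pass. The 97 red genes drawn at the left edge had 0 control counts, and the blue points lie mostly above 1 CPM.

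In all, 30424 genes had no count in the control libraries, 2913 of them had counts in the knockout, 103 passed the filter and 97 rose. All 97 had counts in each of the 3 knockout libraries, 79 had a mean above 1 CPM and 14 a mean above 10 CPM. Their summed level was 523, 714 and 489.5 CPM in the knockout libraries. It was 0.186, 0.578 and 0.645 CPM in the vehicle libraries, where 82 of the 97 also had no count, and 0.394, 0.909 and 0.801 CPM in the AzadC libraries. Knockout 2 had the highest level for 57 of the 97 genes, knockout 1 for 26 and knockout 3 for 14. Among the 103 tested genes, 59 were protein-coding and 13 were long intergenic RNAs.

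Dazl, which encodes an RNA-binding protein needed by germ cells (chromosome 17, 50279395 to 50293636, minus strand, mm10), was the most abundant of these genes, at 67.5, 120.2 and 80.3 CPM. Sohlh2, which encodes a helix-loop-helix regulator of young spermatogonia and oocytes, followed at 44.0, 81.8 and 53.2 CPM. Dcaf8l, an X-linked relative of a ubiquitin ligase adaptor, stood at 33.6, 41.1 and 32.7 CPM. Knockout 2 was the highest library for each of these 3 genes. With 3 counts set as the floor of the control group, these levels were at least 2297-fold, 1534-fold and 924-fold higher. Not all of the set are germ line genes: Strc, which encodes stereocilin of the inner ear, rose from 0 to 10.7, 15.5 and 9.90 CPM, at least 312-fold. Fgf21, a hormone gene that responds to stress, rose from 0 to 1.0, 1.57 and 0.711 CPM, at least 28.7-fold.

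**Figure D2:**
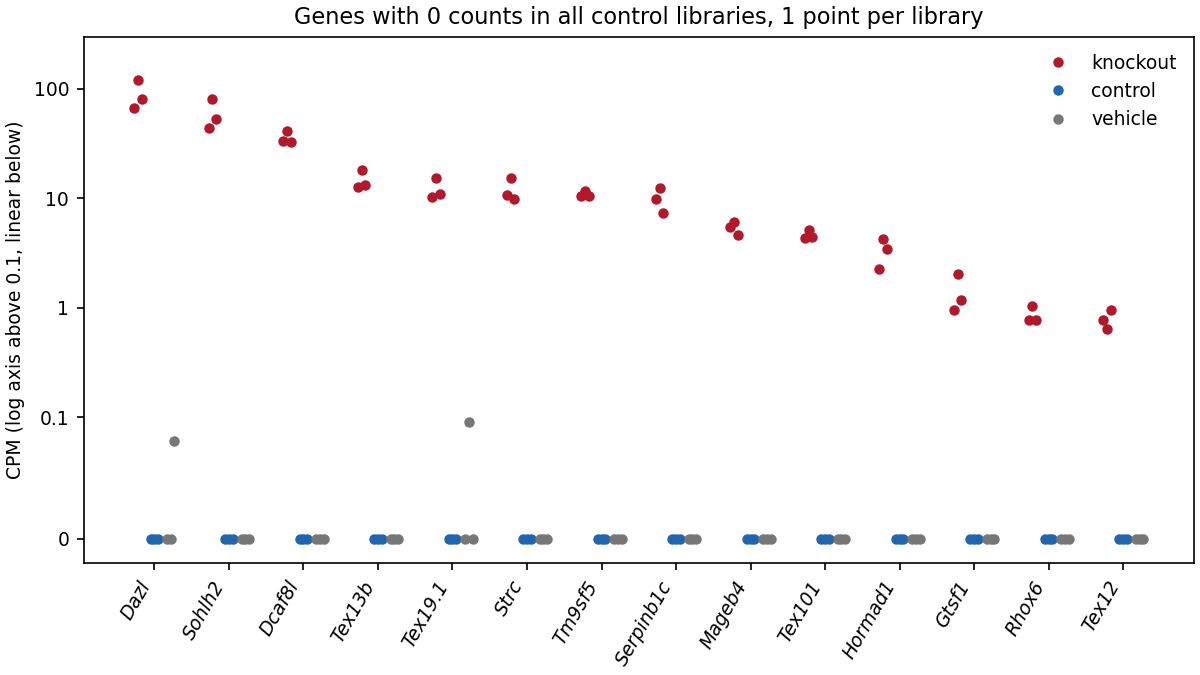
The vertical axis is CPM (log above 0.1, linear below) and each point is 1 library, for 14 genes with 0 counts in all control libraries. Knockout points run from 0.640 CPM for Tex12 to 120.2 CPM for Dazl, and all control points are at 0.

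Promoters of these genes were read from RefSeq (GRCm38.p6, the assembly also called mm10), as 250 bases before to 50 bases after each gene's start. Methylation of CpG dinucleotides is what Dnmt1 maintains, so the promoters below are shown to let a reader see how CpG-dense or CpG-poor the start of a silent gene that came on can be. Capitals mark CpG dinucleotides, and each sequence runs 5′ to 3′ on the gene's strand. Dazl lies at chr17:50293571-50293870 (minus), Tex19.1 at chr11:121145893-121146192 (plus), Tex13b at chrX:140813384-140813683 (minus) and Mageb16 at chrX:79671386-79671685 (minus).
Dazl: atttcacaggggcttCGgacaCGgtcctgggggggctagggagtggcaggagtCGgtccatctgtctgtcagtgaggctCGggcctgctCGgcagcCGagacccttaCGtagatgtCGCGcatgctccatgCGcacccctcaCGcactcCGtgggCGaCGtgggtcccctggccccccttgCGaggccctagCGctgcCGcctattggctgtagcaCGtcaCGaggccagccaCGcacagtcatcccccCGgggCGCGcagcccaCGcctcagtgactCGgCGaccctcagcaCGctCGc
Tex19.1: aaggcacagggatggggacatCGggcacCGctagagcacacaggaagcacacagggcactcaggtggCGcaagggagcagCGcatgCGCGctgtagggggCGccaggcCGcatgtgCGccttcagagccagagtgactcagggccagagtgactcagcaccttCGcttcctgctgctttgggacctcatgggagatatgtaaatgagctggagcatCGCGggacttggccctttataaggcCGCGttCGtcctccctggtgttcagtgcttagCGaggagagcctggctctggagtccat
Tex13b: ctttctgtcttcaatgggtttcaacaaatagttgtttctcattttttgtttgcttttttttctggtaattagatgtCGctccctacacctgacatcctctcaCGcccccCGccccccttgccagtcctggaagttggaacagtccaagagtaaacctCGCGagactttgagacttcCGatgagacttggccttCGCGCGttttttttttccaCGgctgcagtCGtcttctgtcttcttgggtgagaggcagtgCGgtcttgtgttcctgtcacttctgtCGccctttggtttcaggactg
Mageb16: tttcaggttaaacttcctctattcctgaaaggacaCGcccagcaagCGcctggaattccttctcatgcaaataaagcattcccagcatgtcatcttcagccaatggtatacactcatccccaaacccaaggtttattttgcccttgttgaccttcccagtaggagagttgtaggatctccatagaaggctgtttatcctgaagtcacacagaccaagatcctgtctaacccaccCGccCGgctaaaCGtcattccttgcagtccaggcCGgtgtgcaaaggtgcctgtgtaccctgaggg
The Dazl promoter holds 28 CpGs at an observed to expected ratio of 0.795, the Tex19.1 promoter 16 at 0.575, the Tex13b promoter 13 at 0.730 and the Mageb16 promoter 6 at 0.335. Of these 4 genes, Dazl thus has the densest promoter, and Mageb16, an X-linked gene of the melanoma antigen family, the sparsest.

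Across the set, 56 of the 97 genes had a promoter in the table. High-CpG promoters (observed to expected ratio at least 0.75 and GC content at least 55%) made up 2 of the 56 (3.57%), intermediate promoters 23 (41.1%) and low-CpG promoters (ratio below 0.48) 31 (55.4%). Over all 12227 tested genes with a promoter, 43.0% were high and 22.9% low, and over the whole set of 27025 promoters 22.4% were high and 56.2% low. Among tested genes at 0.1 to 1 CPM in the control, 19.3% were high and 56.0% low. The set thus held fewer high-CpG promoters than each of these backgrounds. Its share of low-CpG promoters was close to that of the whole table and of the tested genes at 0.1 to 1 CPM. Genes that rose from a control level above 1 CPM had high-CpG promoters in 43.1% of cases, almost the same share as all tested genes. Of all tested genes, 6.26% rose among those with high-CpG promoters, 7.64% among intermediate and 11.7% among low-CpG promoters. In the same order these classes held 2, 23 and 32 tested genes with no control count, of which 2, 23 and 31 rose. The shares were thus partly set by the filter and are given as a description. The letters GCGGGA (E2F-type sites, both strands) were in 12.5% of the 56 promoters, against 34.9% of those of tested genes and 20% of all. The E-box CACGTG was in 8.93%, 9.90% and 7.24% in the same order. For tested genes at 0.1 to 1 CPM in the control, the shares were 21.5% for GCGGGA and 7.93% for CACGTG. RefSeq starts need not be the starts used in these shelves, and matches describe letters only.

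The X chromosome carried 25 of the 103 tested genes with no control count. All 25 rose, as did 66 of 72 on the autosomes. Both shares were fixed by the filter, so they do not compare the X chromosome with the autosomes. Among genes that did have control counts, 61 of 598 X-linked genes rose (10.2%) and 68 fell (11.4%), whereas on the autosomes 1183 of 16327 rose (7.25%) and 1041 fell (6.38%). With vehicle in place of control, the X-linked shares were 10.9% higher and 4.52% lower, beside 6.0% and 4.19% on the autosomes. Both sets of shares still count genes near 0 in the control, and over all chromosomes 87 of 108 genes at 0 to 0.1 CPM rose. Such genes passed the filter mainly through knockout reads, so the higher shares were partly set by the filter. Xist, the RNA that silences an X chromosome in female cells, was at 1943, 1879 and 2272 CPM in the knockout and 1410.1, 1293 and 1021 CPM in the control libraries. Its change did not pass the test (log2 0.71, SE 0.94, adjusted p = 0.683), although the groups did not overlap, and it passed only in a fit of these 6 libraries alone. A pair of X-linked genes were among those that fell with the smallest adjusted p. Nlgn3, a synaptic adhesion gene, went from 54.6, 66.4 and 53.3 CPM to 24.5, 25.1 and 28.9 CPM (log2 -1.15, SE 0.10, adjusted p = 1.01e-05), and Maged2, a broadly expressed member of the Mage superfamily, from 525, 506 and 475 CPM to 352, 330.0 and 330.4 CPM (log2 -0.57, SE 0.06, adjusted p = 3.49e-05).

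Of the 16 Y-linked genes tested 10 rose (62.5%) and none fell, with a median of 1.81, and 4 of the 10 had no control count. Those 4 entered the test only through reads in other groups, mainly the knockout. The share and the median were thus partly set by the filter, while over all tested genes 7.83% rose. Most of the 10 are predicted genes, and Y-linked genes present in several copies can share reads, so their single levels are uncertain. Uba1y, a Y-linked ubiquitin-activating enzyme known from the testis, had no count in any control, vehicle or AzadC library and rose to 14.8, 33.4 and 18.2 CPM, at least 569-fold. Usp9y, a Y-linked deubiquitinase, likewise rose from 0 to 1.87, 4.58 and 1.3 CPM, at least 67.9-fold, a call lost with DESeq2. The broadly expressed Y-linked genes did not change beyond their spread. Kdm5d, a histone demethylase, had 40.8, 59.6 and 32.0 CPM in the knockout and 25.6, 48.1 and 67.0 CPM in the control, and Ddx3y, an RNA helicase, 30.4, 41.4 and 23.5 CPM against 17.1, 28.8 and 53.1 CPM. Their log2 changes were -0.08 (SE 0.34) and -0.04 (SE 0.34), and both groups thus held reads of male embryos. These Y-linked genes were chosen after their values were seen.

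Genes of the germ line rose by role. The piRNA pathway protects germ cells from transposons through small RNAs bound to Piwi proteins, and 13 of its 21 tested genes (of 26 listed) rose and none fell, with a median log2 change of 2.09. Over all tested genes 7.83% rose. Of the 21 tested genes 2 had no control count and entered the test only through reads in other groups, mainly the knockout. The share and the median were thus partly set by the filter. Mov10l1, the RNA helicase that starts piRNA production, went from 0, 0.0383 and 0 CPM to 14.7, 19.6 and 13.4 CPM. Fkbp6, a co-chaperone of the pathway, stood at 11.9, 21.3 and 13.2 CPM against 0, 0.153 and 0.0571 CPM. Both were near 0 in every control library and above 10 CPM in every knockout library. Gpat2, a mitochondrial acyltransferase, rose by 5.57 (SE 0.50, adjusted p = 1.12e-05) and Ddx4, the germ cell helicase Vasa, by 2.48 (SE 0.28, adjusted p = 7.88e-05). Among the Piwi genes, Piwil2 rose from 0.358, 0.230 and 0 CPM to 3.88, 7.23 and 3.79 CPM, whereas Piwil1 and Piwil4 did not pass the filter on low counts. Tdrkh, Tdrd9 and Tdrd7, scaffold proteins of the same pathway, had changes of 0.69, 0.86 and -0.18 and did not pass.

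Of the 24 tested genes of meiotic chromosomes (of 37 listed), 14 rose and none fell, with a median of 2.37. Here too 2 of the tested genes had no control count, so the share and the median were partly set by the filter. Mnd1, which helps strand exchange in meiotic recombination, went from 5.60, 4.02 and 5.93 CPM to 90.2, 90.6 and 74.3 CPM (log2 4.04, SE 0.20, adjusted p = 4.64e-08). Stag3, the meiotic cohesin subunit, went from 13.1, 17.5 and 15.0 CPM to 70.7, 83.3 and 62.1 CPM (log2 2.24, SE 0.13, adjusted p = 1.34e-07). These 2 were already transcribed in control shelves and differed by far more than the replicate spread. Hormad1, which marks meiotic chromosome axes, rose from 0 to 2.24, 4.28 and 3.44 CPM, and the synaptonemal complex gene Sycp2 from 0.507, 0.306 and 0.228 CPM to 3.43, 6.94 and 5.93 CPM. Among the 10 tested genes that did not pass were Spo11, which makes the breaks that start recombination, Dmc1, which pairs the broken strands, and Prdm9, which marks where breaks form, with log2 changes of -1.06, -0.27 and 0.23.

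Of 18 tested germ cell regulators (of 34 listed), 9 rose, 5 of which had no control count, and 9 did not pass. Those 5 entered the test only through reads in other groups, mainly the knockout, so the share was partly set by the filter. Taf7l, a testis form of a general transcription factor subunit, rose by 7.54 (SE 0.64, adjusted p = 5.81e-06) to 17.3, 25.8 and 17.6 CPM. The early germ cell and pluripotency genes Pou5f1, Nanog, Prdm14, Dppa3 and Stra8 did not pass the filter in these libraries. Meioc, a meiotic regulator, rose from 0.865, 1.19 and 0.799 CPM to 4.70, 7.53 and 5.21 CPM (log2 2.60), but the vehicle libraries had a mean of 23.9 CPM, above both groups. Across the piRNA, meiotic and regulator lists, 12, 15 and 9 genes were higher when the vehicle libraries took the place of the control, and Meioc was lower. Leaving out 1 library gave 11 to 13, 10 to 13 and 9 to 10.

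Members of gene families that sit together on the X chromosome rose as well. All 8 tested Xlr genes (of 10), lymphocyte-regulated relatives of a synaptonemal complex protein, rose, with a median of 4.38; Xlr3c went from 0, 0 and 0.0571 CPM to 25.6, 35.4 and 24.7 CPM. Xlr3 and Xlr4 copies are nearly identical, so their single levels are uncertain. Only 3 of 34 Rhox homeobox genes passed the filter and all 3 rose, led by Rhox5, the founding gene of the cluster, from 0.775, 0.383 and 0.456 CPM to 40.7, 46.5 and 34.4 CPM. In the Mage A, B and C families 5 of 6 tested genes (of 23) rose, and Magea13 reached 22.2, 30.1 and 25.1 CPM from 0.0596, 0.153 and 0.114 CPM. Of 1106 olfactory receptor genes 10 were tested and 7 rose, 5 of them from 0. Olfr784 was the highest of these, at 13, 18.6 and 14.9 CPM against 0.0596, 0.115 and 0.0571 CPM in the control. A member of these families that was silent in the control entered the test only if it had reads in another group, mainly the knockout, and most Rhox, Mage and olfactory receptor genes were not tested.

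Testis copies of housekeeping genes rose as well, 8 of 14 tested (of 24 listed) with a median of 5.43, and 4 of the 14 had no control count. Those 4 entered the test only through reads in other groups, mainly the knockout. The share and the median were thus partly set by the filter and are given as a description. The 1 that fell, Hk1, is the hexokinase of most tissues, listed for its testis form. Tuba3b, a testis alpha-tubulin with a near-identical copy, reached 37.8, 64.4 and 40.1 CPM from 0, 0 and 0.0571 CPM, and Slc25a31, a germ cell ATP carrier of mitochondria, 19.6, 24.0 and 16.5 CPM from 0.417, 0.0766 and 1.14 CPM. Rpl39l, the testis copy of a ribosomal protein, rose from 0.596, 0.843 and 0.399 CPM to 23.2, 29.2 and 23.6 CPM (log2 5.32, SE 0.40, adjusted p = 1.88e-06). Pgk2, Ldhc and Gapdhs, the testis glycolytic enzymes, stayed below the filter.

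Transcripts of 1 complex that represses germ line genes changed by small amounts, and its proteins were not measured. PRC1.6 is a Polycomb complex that includes Mga, E2f6, L3mbtl2 and Pcgf6 and binds germ line promoters. Of its 12 genes, 2 passed the test and none fell, with a median of -0.01. Mga, E2f6, Pcgf6 and L3mbtl2 changed by 0.09, -0.05, 0.02 and 0.22 and did not pass, although for L3mbtl2 the libraries did not overlap. The 2 that rose were Wdr5 by 0.23 and Tfdp1 by 0.22. Both of those calls were lost without knockout 2, knockout 3 or control 2, and Wdr5 also without control 3 and Tfdp1 without control 1. Among 24 methyl-CpG readers and heterochromatin genes, Suv39h2, a histone H3 lysine methyltransferase gene with high testis expression, rose from 32.4, 25.9 and 26.5 CPM to 50.9, 64.3 and 51.5 CPM (log2 0.97, SE 0.13, adjusted p = 3.76e-04). Its relative Suv39h1 had a change of 0.18 and did not pass.

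Imprinted genes are expressed from one parental copy, and the changes were modest and of both signs. Of 28 genes expressed from the paternal copy, 5 rose and 2 fell, with a median of 0.02. Of 19 tested genes expressed from the maternal copy, 1 rose and 5 fell, with a median of -0.29. Over all tested genes 7.83% rose and 6.43% fell. The 2 lower paternal calls and the 1 higher maternal call were near those shares. Against the vehicle the maternal list had 2 higher and 2 lower genes and a median of 0.22, and the paternal list 4 higher and 2 lower genes and a median of 0.07. Mest, a paternally expressed gene of mesoderm, rose from 1056, 987 and 1024 CPM to 1466, 1777 and 1507 CPM (log2 0.63, SE 0.08, adjusted p = 2.18e-04). Slc38a4, an amino acid transporter gene, rose by 0.44 (SE 0.07, adjusted p = 0.00111). Grb10, a growth-restraining adaptor gene, fell from 1989, 2075 and 2101 CPM to 1705, 1600.2 and 1663 CPM (log2 -0.31, SE 0.06, adjusted p = 0.00325). Against the vehicle libraries these 3 genes changed by 0.73, 0.42 and -0.46. Plagl1, a paternally expressed growth regulator gene, fell by 0.55 (SE 0.15) and Klf14, a maternally expressed transcription factor gene, by 1.38 (SE 0.36), but against the vehicle both values were positive, at 0.49, which passed as higher (adjusted p = 0.0485), and 0.75, which did not pass. Klf14 also lost its call without knockout 1, knockout 2 or any 1 control library, and Plagl1 without knockout 1, knockout 2 or control 3. The neighbours H19, expressed from the maternal copy, and Igf2, from the paternal copy, moved in opposite directions, H19 by 0.39 (SE 0.12, adjusted p = 0.0475) and Igf2 by -0.39 (SE 0.11, adjusted p = 0.0349). Both calls rested on single libraries: H19 was lost without knockout 1, knockout 2, control 2 or control 3 and Igf2 without knockout 2, knockout 3, control 1 or control 2. Without control 2, 3 paternally expressed genes were higher. Protocadherin clusters, which are neuronal adhesion genes with promoter choice tied to methylation, gave 0 of 5 calls in the alpha cluster, 3 higher and 1 lower of 21 in the beta cluster and 4 higher of 21 in the gamma cluster. The 1 lower beta call was no more than about the share over all tested genes. Pcdhb2 rose by 1.47 (SE 0.26, adjusted p = 0.00248), and against the vehicle libraries 12 of the 21 beta genes were higher. Without knockout 2 each of the beta and gamma clusters had 1 higher call, without control 1 they had 1 and 2, and the gamma cluster had 2 without knockout 1 or control 3.

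The 2 smallest adjusted p values among the genes that rose belonged to predicted transcripts. Gm42860, an unclassified transcript on chromosome 5, went from 0.537, 0.498 and 0.285 CPM to 239.7, 293 and 216 CPM (log2 9.05, SE 0.19, adjusted p = 5.60e-12), and Gm16001, a long intergenic RNA on the same chromosome, from 10.9, 12.4 and 14.2 CPM to 280.0, 336 and 251 CPM (log2 4.54, SE 0.13, adjusted p = 1.56e-10). Neither has a described function. Among genes with a known product, Slc38a6, an amino acid transporter gene, went from 20.9, 22.9 and 22.7 CPM to 236, 317 and 244 CPM (log2 3.59, SE 0.13, adjusted p = 3.12e-09). Noct, a circadian phosphatase gene, went from 17.5, 19.2 and 17.5 CPM to 859, 1138 and 592 CPM (log2 5.58, SE 0.24, adjusted p = 1.29e-08). Selenop, a secreted selenium carrier, rose from 74.0, 66.5 and 69.4 CPM to 235, 241 and 224 CPM (log2 1.74, SE 0.08). For Slc38a6, Noct and Selenop the control libraries lay close together, and the vehicle means were 18.1, 17.3 and 85.6 CPM.

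The lower calls with the smallest adjusted p were at moderate levels and of moderate size. Ets2, a transcription factor gene, went from 115, 128 and 116 CPM to 71.2, 65.4 and 69.5 CPM (log2 -0.80, SE 0.06, adjusted p = 2.87e-06), with a vehicle mean of 80.6 CPM. Thsd4, which encodes a protein of microfibrils, fell by 1.21 (SE 0.12, adjusted p = 2.45e-05), Dact1, a modulator of Wnt signalling, by 0.75 (SE 0.08, adjusted p = 3.77e-05) and Fbln2, the matrix protein fibulin 2, by 1.03 (SE 0.11, adjusted p = 5.29e-05). The knockout libraries lay below all control libraries for these 4 genes. Against the vehicle the changes were smaller, at -0.23, -0.92, -0.47 and -0.42, and each still passed.

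Genes of the amino acid response rose together. This response, run by the factor Atf4, restores amino acid uptake, synthesis and tRNA charging when cells lack amino acids or are stressed. Of its 17 tested regulators 12 rose and none fell, with a median of 1.17. Atf4 itself rose by 0.32 (SE 0.09, adjusted p = 0.0352), a call lost without knockout 1, knockout 2, control 2 or control 3. Its target Atf5 went from 14.0, 10.4 and 11.8 CPM to 61.1, 56.2 and 37.9 CPM (log2 2.10, SE 0.17). Chac1, a glutathione-degrading enzyme gene, went from 0.268, 0.383 and 0.285 CPM to 7.86, 12 and 5.93 CPM (log2 4.76, SE 0.40). Trib3, a pseudokinase that damps the response, rose by 2.56 (SE 0.41). Among the 15 amino acid transporters 8 rose and none fell. Slc7a5, which imports large neutral amino acids, went from 27.8, 24.2 and 22.3 CPM to 111, 114 and 86.8 CPM (log2 2.06, SE 0.13, adjusted p = 3.21e-07), and its partner Slc3a2 rose by 1.03 (SE 0.11). Slc7a3, which imports cationic amino acids, rose by 4.27 (SE 0.27).

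The synthesis branch followed. In the list of serine, asparagine, proline and one-carbon synthesis, 12 of 17 genes rose and none fell, with a median of 0.62. Asns, asparagine synthetase, went from 21.9, 23.6 and 27.6 CPM to 82.9, 93.7 and 70.1 CPM (log2 1.76, SE 0.12, adjusted p = 1.04e-06). Psat1 of serine synthesis rose by 1.15 (SE 0.10) and the mitochondrial folate enzyme gene Mthfd2 by 1.18 (SE 0.12). The cytosolic folate gene Mthfd1 had a change of 0.09 and did not pass. Of 20 cytosolic aminoacyl tRNA synthetases 13 rose by small amounts (median 0.28), led by Cars at 0.83 (SE 0.10), Gars at 0.62 (SE 0.08) and Aars at 0.57 (SE 0.07). Against the vehicle libraries 11 regulators, 9 transporters, 10 synthesis genes and 12 synthetases were higher. Of 23 endoplasmic reticulum chaperone genes 4 rose and none fell, with a median of 0.17, while 7.83% of all tested genes rose. Herpud1 rose by 0.74 (SE 0.13), Canx by 0.42 (SE 0.06), Hyou1 by 0.36 (SE 0.09) and Hsp90b1 by 0.28 (SE 0.08). Of the 23 fitted changes 21 were positive and 2 negative. Hspa5 and Xbp1, markers of the unfolded protein response, changed by 0.09 and 0.01. Against the vehicle 12 of these chaperone genes were higher, and without knockout 2 or control 2 the count was 2.

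**Figure D3:**
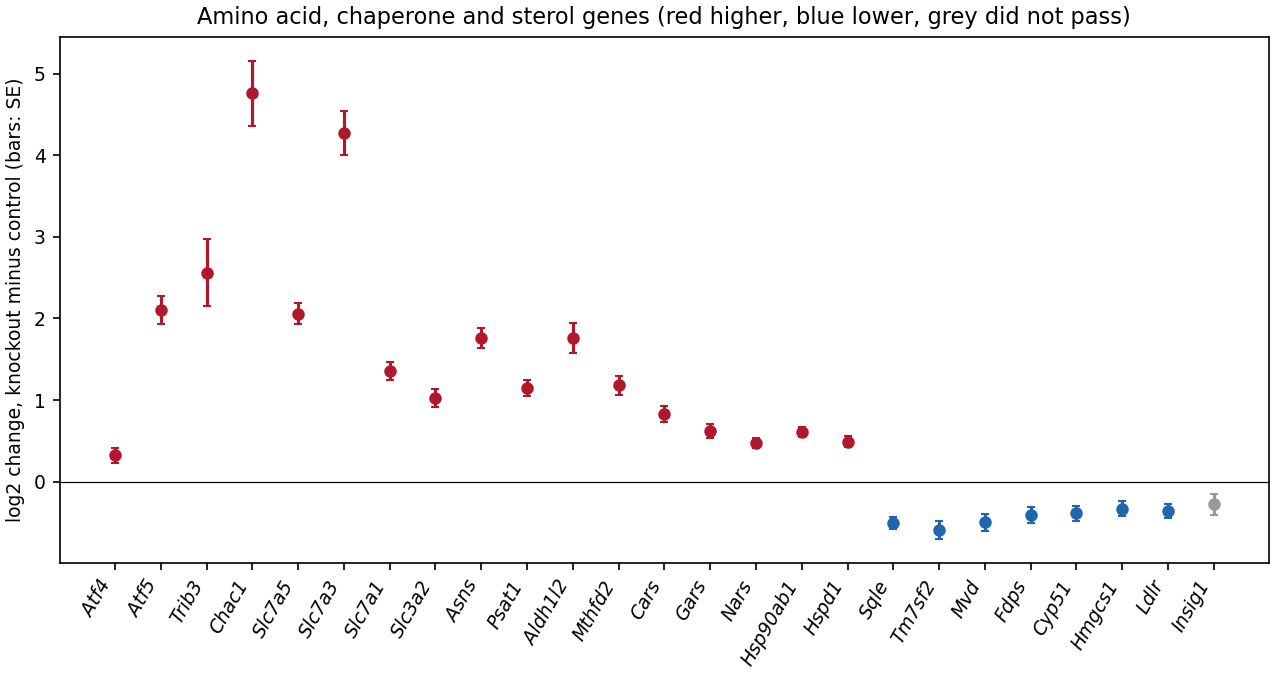
The vertical axis is the log2 change in the knockout, with bars for the SE, for 25 genes of the amino acid response, chaperones and sterol synthesis. Red points (higher) run from 0.32 for Atf4 to 4.76 for Chac1, and the blue sterol genes (lower) lie between -0.59 and -0.33.

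Cholesterol synthesis genes went the other way. Of 23 genes of the pathway and its control, 14 fell and none rose, with a median of -0.37, and the knockout libraries lay wholly below the control for 18. Sqle, squalene epoxidase, went from 115, 104 and 116 CPM to 74.1, 76.6 and 84.6 CPM (log2 -0.51, SE 0.07, adjusted p = 4.98e-04). Tm7sf2, a sterol reductase gene, fell by 0.59 (SE 0.11, adjusted p = 0.00404) and Mvd of the mevalonate branch by 0.50 (SE 0.10, adjusted p = 0.00519). Against the vehicle libraries 11 of the 23 were lower, with a median of -0.42. The changes were small enough that only 2 passed a test against a 1.2-fold change, and the count was 3 without knockout 2, 7 without knockout 1 and 8 without control 1 or control 3.

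Small rises were spread over other genes of growth. Of 19 CCT chaperonin and heat shock genes 14 rose (median 0.35). Hsp90ab1, the constitutive cytosolic chaperone, went from 2647, 2559 and 2588 CPM to 4003, 4071 and 3812 CPM (log2 0.61, SE 0.06, adjusted p = 1.35e-05), and against the vehicle, at 3225 CPM on average, the change was 0.30. Of 79 cytosolic ribosomal protein genes 25 rose (median 0.18), of 26 nuclear pore genes 11 (median 0.20), of 30 mitosis genes 20 (median 0.31) and of 35 DNA replication genes 8 (median 0.23). None of these lists had a lower call. Ncapd2, a condensin subunit of mitotic chromosomes, rose from 373, 368 and 388 CPM to 491, 505 and 472 CPM (log2 0.38, SE 0.06), yet the vehicle libraries had a mean of 505 CPM. Against the vehicle, the counts were 9 chaperone, 8 ribosomal, 2 nuclear pore, 0 mitosis and 1 replication genes. Without knockout 2 the mitosis count was 6, the nuclear pore count 4 and the replication count 3, and without control 2 they were 8, 7 and 5. Without knockout 1 the nuclear pore count was 7.

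Genes of the p53 pathway, which responds to DNA damage, rose more often than they fell, though most did not pass. Of 36 tested targets 9 rose and 2 fell, with a median of 0.21, while over all tested genes 7.83% rose and 6.43% fell. Of the 36 fitted changes 25 were positive and 11 negative. Eda2r, a death receptor gene, went from 0.566, 0.843 and 0.685 CPM to 4.57, 8.27 and 5.87 CPM (log2 3.16, SE 0.35, adjusted p = 6.79e-05). Cdkn1a, the cell cycle inhibitor p21, went from 10.8, 6.09 and 5.48 CPM to 35.7, 29.3 and 15.7 CPM (log2 1.84, SE 0.38, adjusted p = 0.00605), and Ccng1 rose by 0.94 (SE 0.16). Trp53 itself rose by 0.45 (SE 0.08, adjusted p = 0.00170). The count of targets that rose was 5 without knockout 2. Most other targets, among them Bax with a change of 0.21 and Pmaip1 with 0.50, did not pass.

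Among the lists with at least 10 tested genes, which are those drawn in the plot of calls by gene list, macrophage genes had the largest share of higher calls. Macrophages settle in embryonic tissues and take up dying cells. Of 28 tested genes 24 rose and none fell, with a median of 1.92, and their summed level over the list was 527, 512 and 491 CPM in the knockout, 161, 119.9 and 113 CPM in the control and 186, 143 and 146 CPM in the vehicle libraries. Csf1r, the receptor for their survival factor, went from 20.7, 16.1 and 17.3 CPM to 101, 89.0 and 86.5 CPM (log2 2.35, SE 0.14, adjusted p = 1.78e-07). Adgre1, which encodes F4/80, rose by 2.46 (SE 0.17) and Tyrobp, a signalling adaptor, by 2.16 (SE 0.17). Among the 4 that did not pass were Lyve1 and Pf4, at -0.29 and 0.41. The count was 23 to 25 with any 1 library left out and 22 against the vehicle.

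Lysosomal genes moved beside them. Of 27 phagocytosis and lysosome genes 15 rose and 1 fell (median 0.46). Ctsb, cathepsin B, went from 202, 197 and 173 CPM to 434, 444 and 420.0 CPM (log2 1.18, SE 0.06, adjusted p = 1.07e-07). Apoe, a lipid carrier, went from 49.3, 37.0 and 28.6 CPM to 232, 189.6 and 166 CPM (log2 2.34, SE 0.18). Ctsd, cathepsin D, rose by 0.91 (SE 0.08), and the 1 gene that fell was the receptor gene Axl, by 0.35, a call lost without knockout 2 or control 2. Many tissues also express these genes, and the part of macrophage RNA in their rise was not tested. Without knockout 2 the count was 8. Of 10 tested genes of other blood cells, Kit and Cd79b rose, and the T cell genes Cd3e and Cd3d were below the filter. Kit was not called against the vehicle. Of 34 interferon-stimulated genes 3 rose, a share near the 7.83% of all tested genes, at mean levels below 2 CPM in the knockout. The count was 1 without knockout 2, and none rose without control 2. Of 15 nucleic acid sensors 3 rose and 1 fell.

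**Figure D4:**
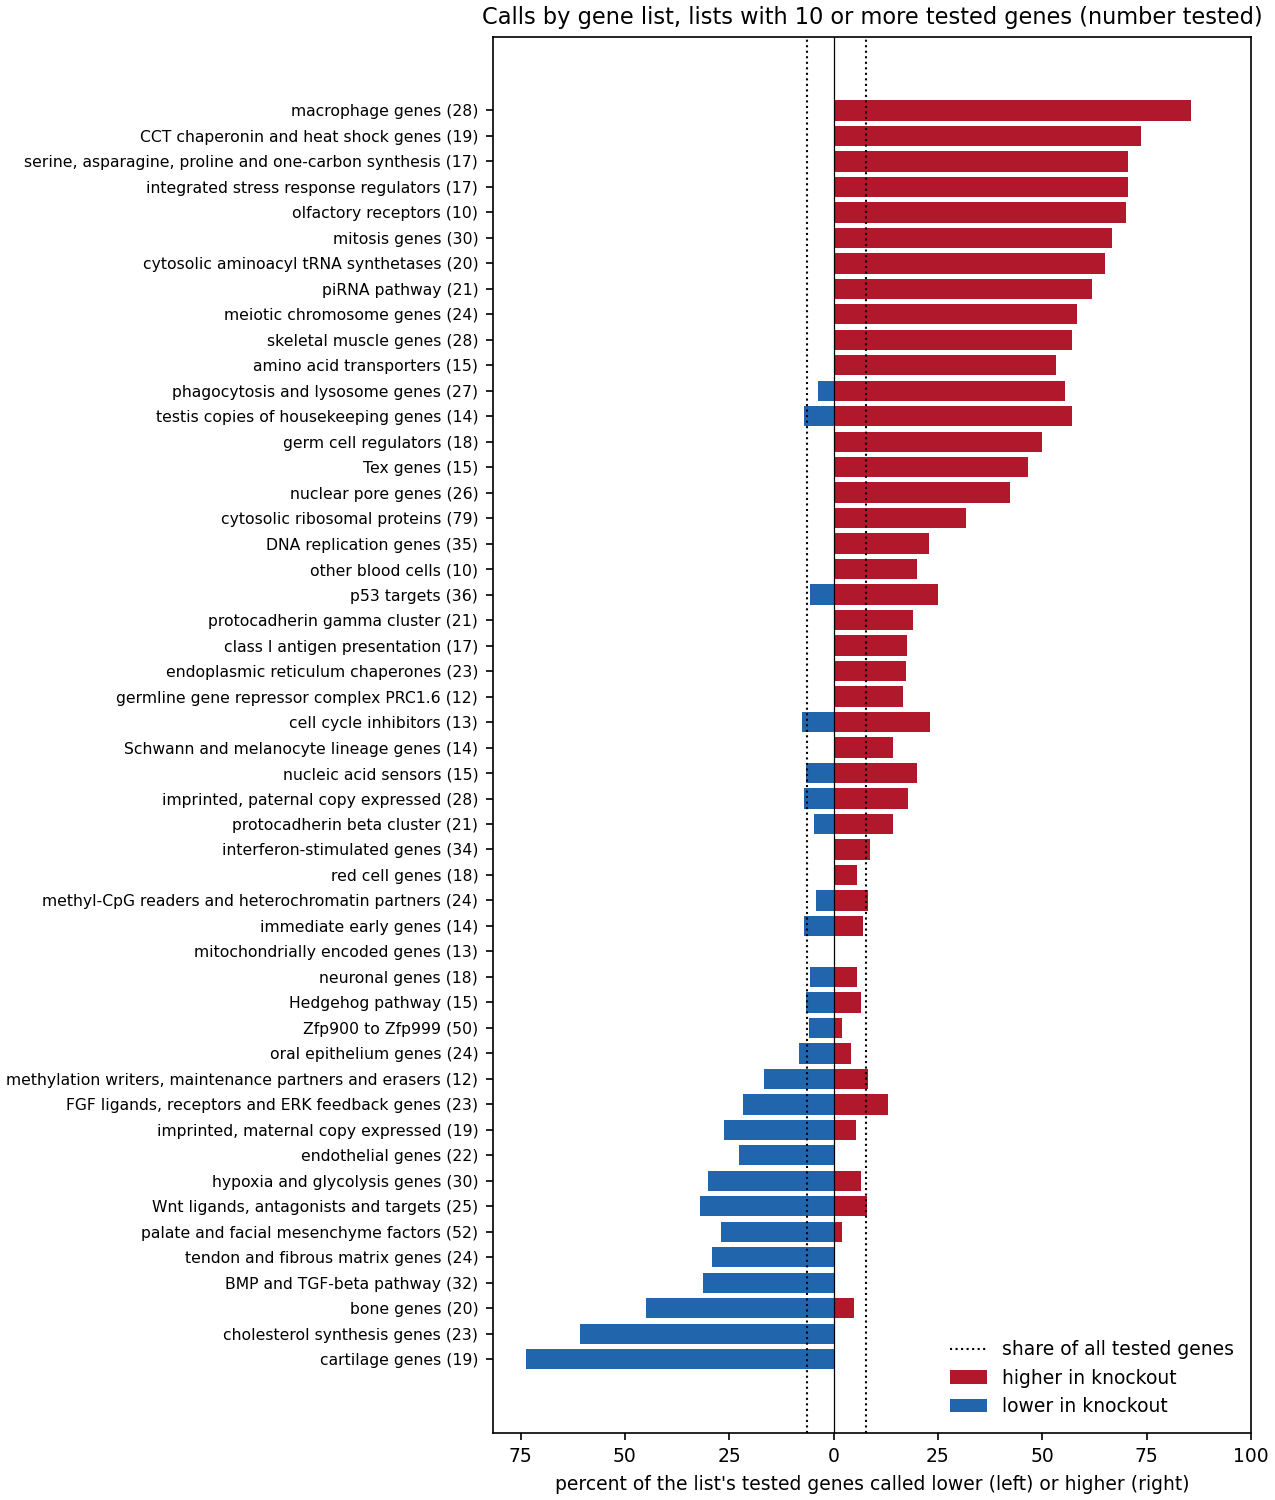
Bars give, for each list with at least 10 tested genes, the percent of them that were higher (right, red) or lower (left, blue) in the knockout, and the dotted lines mark the shares over all tested genes, 7.83% higher and 6.43% lower. Macrophage genes (24 of 28) stand at the top and cartilage genes (14 of 19) at the bottom.

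Many cartilage genes fell. Of 19 tested cartilage genes 14 fell and none rose, with a median of -1.80. Sox9, the factor that commits cells to cartilage, went from 99.6, 133 and 71.5 CPM to 30.8, 23.6 and 33.3 CPM (log2 -1.80, SE 0.18, adjusted p = 3.01e-05), and its partner Sox5 fell by 1.31 (SE 0.18). Col2a1, the main cartilage collagen, went from 1221, 1771 and 593 CPM to 403, 214 and 302 CPM (log2 -1.96, SE 0.31, adjusted p = 0.00113). Acan, the cartilage proteoglycan, spread widely in the control, at 21.2, 59.4 and 3.65 CPM, against 1.46, 0.640 and 1.3 CPM in the knockout, and its call was lost with limma-voom. Control 2 was the highest of all 6 libraries for each of these 4, and control 3 the lowest of the control group. The summed cartilage level was 2368, 3681 and 1248 CPM in the control, 821, 555 and 729 CPM in the knockout and 1809, 1911 and 1748 CPM in the vehicle libraries. Against the vehicle, 5 cartilage genes were lower, among them Sox9 at -1.66, Sox5 at -1.56 and Col2a1 at -1.67, whereas Acan at -1.92 did not pass.

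Bone and fibrous matrix genes depended more on the wild type group. Of 20 tested bone genes 9 fell and 1 rose (median -0.54), but against the vehicle 1 was lower and 5 were higher. Runx2, the factor that commits cells to bone, went from 84.1, 114 and 102 CPM to 37.0, 45.3 and 52.3 CPM (log2 -1.16, SE 0.14, adjusted p = 1.33e-04), but the vehicle mean was 53.6 CPM. Ibsp, bone sialoprotein, had the most negative fitted change of the genes described here, from 5.22, 14.9 and 2.91 CPM to 0, 0 and 0.237 CPM, with a vehicle mean of 0.0888 CPM. For both genes the vehicle libraries thus lay near the knockout. Of 24 tendon and fibrous matrix genes 7 fell, 4 without knockout 2 and 3 without control 2. Col12a1, a fibril-associated collagen, went from 585, 893 and 469.5 CPM to 213, 122 and 193 CPM (log2 -1.88, SE 0.26, adjusted p = 3.45e-04), and the change against the vehicle was -1.23. Postn, periostin, fell by 0.87 against the control and was higher by 1.10 against the vehicle. Its call was lost on leaving out any library but knockout 3.

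**Figure D5:**
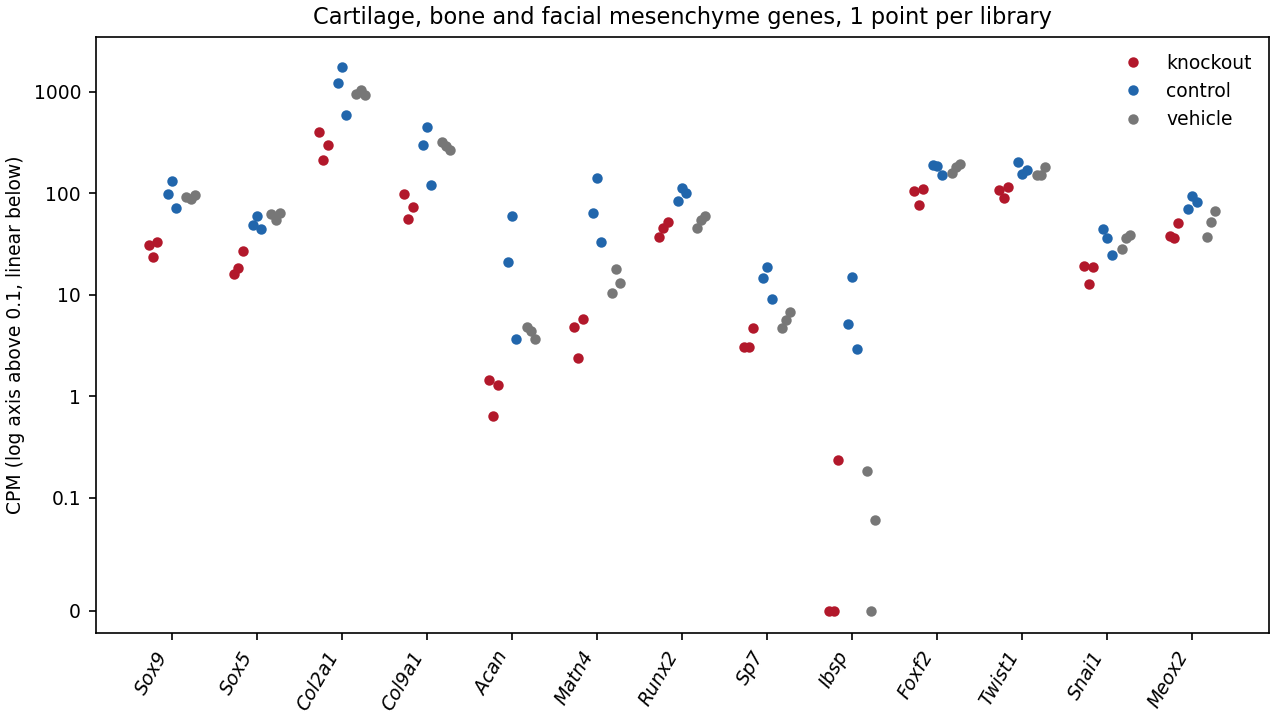
The vertical axis is CPM (log above 0.1, linear below) and each point is 1 library, for cartilage, bone and facial mesenchyme genes. Knockout points for Sox9 (23.6 to 33.3 CPM) lie below both control and vehicle, whereas for Ibsp and Runx2 the vehicle points lie near the knockout.

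Among 52 tested factors of the palate and facial mesenchyme 14 fell and 1 rose, with a median of -0.22. Foxf2, a forkhead factor of the oral mesenchyme, went from 189, 185 and 151 CPM to 106, 77.3 and 111 CPM (log2 -0.84, SE 0.13, adjusted p = 0.00103). Twist1, a factor of neural crest mesenchyme, went from 204, 157 and 169 CPM to 107, 90.5 and 116 CPM (log2 -0.76, SE 0.14, adjusted p = 0.00319). Snai1, a factor of epithelial to mesenchymal transition, fell by 1.07 (SE 0.21) and Mn1, a coregulator linked to the palate, by 0.62 (SE 0.11). Against the vehicle these 4 had changes of -0.86, -0.63, -1.03 and -0.49. Meox2 fell by 0.98 (SE 0.19) and Msx2 by 2.56 (SE 0.40), while their changes against the vehicle were -0.34 and -0.41 and did not pass. Osr2 and Pax9, the regional factors of palatal growth, had changes of -0.26 (SE 0.33) and 0.24 (SE 0.15), within the spread of the libraries. The count of lower factors was 7 without knockout 2, 8 without control 1 and 9 without knockout 3.

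Signalling genes were examined by ligand, receptor and antagonist. Of 25 tested Wnt genes 8 fell and 2 rose, and without knockout 2 there were 5 lower calls. The median was -0.40 against the control and 0.09 against the vehicle, where 3 genes were lower and 2 higher. The secreted antagonists Sfrp1 and Sfrp2 fell by 0.79 (SE 0.16) and 0.87 (SE 0.18), while the antagonist Dkk1 rose from 5.43, 1.99 and 3.59 CPM to 9.82, 9.99 and 17.2 CPM (log2 1.73, SE 0.31, adjusted p = 0.00232). Lgr5, a receptor for R-spondins, the ligand Rspo3 and the secreted Dkk3 fell by 0.94 (SE 0.14), 0.79 (SE 0.16) and 0.94 (SE 0.17), and against the vehicle, at -0.36, -0.24 and 0.31, none of the 3 passed. Axin2, a target of the pathway, had a change of -0.12 and did not pass. Of 32 BMP and TGF-beta genes 10 fell and none rose. Tgfb3, a ligand needed for palatal fusion, went from 64.9, 65.8 and 65.1 CPM to 42.3, 41.5 and 45.5 CPM (log2 -0.60, SE 0.08, adjusted p = 2.56e-04), and Id2, a BMP target, fell by 0.60 (SE 0.08). Against the vehicle Tgfb3 and Id2 changed by -0.28 and -0.58, and 3 genes of the list were lower. Of 23 FGF genes 5 fell and 3 rose. The lower count was 1 without knockout 2 and 2 without control 2, and the higher count was 5 without knockout 3. Fgfr2, the receptor for epithelial and mesenchymal exchange, went from 197, 212 and 147 CPM to 106, 70.8 and 108 CPM (log2 -0.96, SE 0.18, adjusted p = 0.00289) and changed by -1.04 against the vehicle. Of 15 Hedgehog genes 1 fell and 1 rose, near the shares over all tested genes (6.43% and 7.83%). Gli1, a target, fell by 0.30 (SE 0.07) and Cdon, a coreceptor, rose by 0.54 (SE 0.15). The call of Cdon was lost without knockout 1, knockout 2, control 1 or control 2.

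Other cell types were read through their markers. Skeletal muscle genes gave 16 higher calls among 28, with a median of 3.13, but their summed level spread widely within each group: 1589, 726 and 256 CPM in the knockout, 162, 76.6 and 12 CPM in the control and 105, 635 and 66.9 CPM in the vehicle libraries. Neb, a giant muscle filament gene, showed the same spread, at 71.7, 38.8 and 11.9 CPM in the knockout and 5.78, 3.95 and 2.23 CPM in the control. There was 1 muscle call without knockout 1 or control 2, 2 without control 3 and 6 without knockout 2, and there was none against the vehicle. Endothelial genes had 5 lower calls among 22, and 18 of the 22 fitted changes were negative. Erg, an endothelial and cartilage transcription factor gene, went from 37.5, 52.8 and 30.0 CPM to 12.2, 9.89 and 13 CPM (log2 -1.78, SE 0.19, adjusted p = 5.60e-05). The other 4 were the junction gene Cldn5 (-0.80, SE 0.15), the lymphatic receptor gene Flt4 (-0.59, SE 0.12), the peptide gene Apln (-0.96, SE 0.14) and its receptor gene Aplnr (-0.46, SE 0.06). Against the vehicle 2 of the list, Erg at -1.10 and Aplnr at -0.27, were lower. The adhesion gene Cdh5 and the VEGF receptor gene Kdr had changes of -0.17 and -0.13 and did not pass. Oral epithelium gave 1 higher and 2 lower calls of 24, neuronal genes 1 and 1 of 18, and red cell genes 1 higher of 18. These counts were no more than about the shares over all tested genes, 7.83% higher and 6.43% lower. Against the vehicle these lists gave 1 higher and 1 lower, 3 higher and 0 lower, and 1 higher and 6 lower calls. Of 30 hypoxia and glycolysis genes 9 fell and 2 rose, but none was lower against the vehicle and the lower count was 3 without control 1, 4 without knockout 1 and 5 without knockout 2. None of the 13 tested genes of the mitochondrial genome passed the test against the control (median 0.07), and 7 were higher against the vehicle (median 0.31). The part of muscle or other cells in the results above was not tested.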

How the data were processed

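RNA sequencing of 12 libraries was used. Per the submitters' processing notes, which list tools and the build without their order, the authors used STAR 2.7.0 and RSEM 1.3.1 with the build mm10, beside Trim Galore, FastQC and DESeq2. The authors deposited RSEM expected counts and TPM per gene, per the file headers. The strand setting was not given in the sources used here. Expected counts were rounded to whole numbers (90.6% to 92.0% already were, within 0.005). CPM were computed here from the deposited counts with TMM scaling. Deposited TPM values served the tissue check and the ranking of abundant genes only.

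All 12 libraries were fitted with edgeR 4.0.16 (R 4.3.3) with 1 mean per group: filterByExpr, TMM, the quasi-likelihood test, and the Benjamini-Hochberg adjustment over 17335 genes at 0.05. All adjusted p-values are from this fit, and each SE was taken as the size of the log2 change over √F. Genes with 0 control counts are given a lower bound of the fold, from 3 counts over the control group. Library sizes of 16997239 to 33113790 limit the precision of genes with few counts, and bounds cover counting error only. Positions came from GENCODE M21 (52073 of 56691 genes) and promoters from RefSeq (GRCm38.p6). Tested on simulated data of 17335 genes for this comparison, 20.9%, 91% and 100% of genes changed 1.5-, 2- and 4-fold were recovered, with 4.7% false calls. Every simulated gene had the same spread between replicates, and the changed genes were drawn from those above a minimum count. These rates do not cover genes with few counts or with a wider spread.

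Named genes were the methylation enzymes, the 12 largest changes, 10 smallest adjusted p and 8 most abundant calls in each direction (libraries not overlapping for the first), and up to 6 members of each list. Members and lists were chosen with earlier results of these data known, and genes outside the rule, mostly those that did not pass and Y-linked or Gm genes, after their values were seen. Alternatives were DESeq2 1.42.0, limma-voom (limma 3.58.1), other scalings and filters, the 6 libraries alone, a replicate block, a Y-linked covariate, a 1.2-fold threshold, the vehicle as reference and single libraries left out. 1 gene is not reported here.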

Additional observations from a re-analysis of the deposited data

How the results depend on the processing

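Dnmt1 kept its direction and its call under every alternative run. Against the 1358 higher and 1115 lower genes, DESeq2 gave 1594 and 1335, limma-voom 1435 and 1132, no filter 1598 and 1315, a mean above 1 CPM 1162 and 1110, and the other scalings 1375 to 1411 and 1088 to 1108. A fit of the 6 libraries alone gave 1173 and 837. Testing against a 1.2-fold change left 673 higher and 404 lower genes, all of them among the genes called, and the vehicle in place of the control gave 1162 and 716. Leaving out 1 library at a time gave 808 to 1262 higher and 552 to 969 lower genes, with the lowest counts without knockout 2. With the replicate block the counts were 1228 and 1016. Same-numbered knockout and control libraries had correlations of 0.28, 0.08 and 0.24 in their deviations from the group means. For differently numbered libraries the correlations ran from -0.3 to 0.08. The main fit did not pair the samples by number, and whether same-numbered libraries share a batch was not tested. Among the genes described above that passed against the control, the direction turned only against the vehicle, and the cause was not tested. It did so for Postn (1.10), Meioc (-2.04), Ncapd2 (-0.05), Plagl1 (0.49), Klf14 (0.75) and Dkk3 (0.31). Called genes that met the naming rule but are not described above also turned. Among them were Aspn (1.87), Bmp3 (0.24), Ogn (0.34), Krt17 (0.96) and Nefl (0.90), each lower against the control. Named genes that did not pass were not counted here, and Osr2, Spo11 and Axin2 also changed sign against the vehicle (0.41, 0.59 and 0.18). Genes with few control counts depend on the filter: without it 14 olfactory receptors were higher instead of 7, and with a mean above 1 CPM 1. In simulated data with the same spread for every gene, 20.9% of 1.5-fold changes were recovered. Replicate libraries differed by 9.62 to 21.5 times counting error (chi-square per degree of freedom), and depth was not varied.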
